A study of Homo sapiens with 12 samples.

Results

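G2 and mitosis genes were described here as a set of 52 genes, from the cyclins that start mitosis to the proteins that cut the daughter cells apart. The members were given as a list of symbols, and no value of these libraries entered the rule, although earlier results of these data were known when the list was made. Each of the 52 symbols matched 1 Ensembl identifier of the 63568 in the count table, and all 52 passed the filter on low counts that left 25249 genes for testing. RNA was sequenced from MDA-MB-231 cells, a triple negative breast cancer line, meaning that its cells lack the estrogen and progesterone receptors and carry no amplified HER2. The cells expressed GFP, carried the wild type genotype by the labels, and were grown as droplets in Matrigel, a basement membrane gel, in every group. The 12 libraries fall into 6 conditions with 2 libraries each: no treatment, taken on day 2 (C1); no treatment, taken on day 4 (C2); and Paclitaxel at 0.0005, 0.005, 0.05 or 0.5 μM, given on day 2 and taken on day 4. All groups came from 1 cell line, the gel was broken down with enzymes before the RNA was extracted, and the methods of the study call the 2 libraries of a condition biological replicates.

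Paclitaxel binds the microtubules of the spindle and stabilises them, and cells with a faulty spindle are held in mitosis by the spindle assembly checkpoint. Cyclin B1 with its kinase CDK1 drives entry into mitosis, and both cyclin B and securin are destroyed when the anaphase promoting complex (APC/C) is released. Most of the genes of this set are read in G2 and mitosis under the DREAM and MuvB complexes, B-MYB (MYBL2) and FOXM1. Some are needed already in S phase and G2, such as TOP2A, and the RNA of others peaks at mitosis, such as CCNB1. The members were therefore split by general knowledge into 26 late mitotic genes and 26 earlier proliferation genes. Earlier results of these data were known when the split was made, and times of peak RNA were not measured here. The earlier class also holds genes whose proteins act in mitosis, among them ESPL1, NDC80, NUF2, ANLN and RACGAP1. The question set for them was which rise at the highest dose and which do not.

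The promoters carry the sequences through which those complexes are known to act. Of the 52 members, 44 had a promoter entry in the RefSeq table for GRCh38.p14, which covers 250 bases before and 50 bases after the gene start. The cell cycle genes homology region (CHR), the site of the MuvB complexes, was searched for as TTTGAA on both strands, and the CCAAT box, the site of NF-Y, as CCAAT on both strands. The 2 motifs can share a base, and in 2 of the 44 members a pair did so. TTTGAA was found in 30 of the 44 promoters (68.2%), against 15.4% of all 27305 promoters of that length. CCAAT was found in 32 (72.7%), against 35.7% of all promoters, and 24 members (54.5%) held both, against 6.08%. All 24 also held a pair that shares no base, against 6.05% of all promoters. The motifs were present in both classes, with TTTGAA in 14 of 22 late mitotic promoters and 16 of 22 earlier ones, and CCAAT in 19 and 13. The following lines give the 120 bases that end just before the gene start, 5′ to 3′ along the gene, for members that were higher, similar or lower at the highest dose, with the letters of both motifs in capitals, on whichever strand they were matched.
CCNB1 (chr5:69167030-69167149, plus strand): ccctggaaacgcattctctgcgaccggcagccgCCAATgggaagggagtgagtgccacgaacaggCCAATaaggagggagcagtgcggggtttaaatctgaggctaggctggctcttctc
HJURP (chr2:233854536-233854655, minus strand): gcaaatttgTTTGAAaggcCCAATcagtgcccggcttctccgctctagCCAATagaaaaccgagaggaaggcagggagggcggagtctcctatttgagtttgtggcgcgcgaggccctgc
CENPA (chr2:26785936-26786055, plus strand): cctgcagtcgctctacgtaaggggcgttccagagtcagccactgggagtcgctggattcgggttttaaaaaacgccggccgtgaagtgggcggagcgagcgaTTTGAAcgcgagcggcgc
CCNB2 (chr15:59105026-59105145, plus strand): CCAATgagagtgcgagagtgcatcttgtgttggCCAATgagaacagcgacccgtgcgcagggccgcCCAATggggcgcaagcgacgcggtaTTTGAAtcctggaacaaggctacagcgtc
PLK1 (chr16:23678769-23678888, plus strand): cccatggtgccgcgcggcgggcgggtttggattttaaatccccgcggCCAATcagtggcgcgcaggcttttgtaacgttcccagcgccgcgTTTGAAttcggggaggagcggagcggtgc
TOP2A (chr17:40417897-40418016, minus strand): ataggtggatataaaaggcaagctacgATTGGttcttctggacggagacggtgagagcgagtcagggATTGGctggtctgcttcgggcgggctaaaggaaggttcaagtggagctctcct
CCNB1 holds 2 CCAAT boxes and no TTTGAA in this window, and CCNB2 holds 3 CCAAT boxes in line before a TTTGAA. HJURP and PLK1 carry both motifs here, and CENPA and TOP2A show only one of them in these 120 bases, while their full entries hold both. A match of letters is a description of the sequence, and binding was not measured in these cells.

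The libraries held between 38380629 and 79169121 counts. The mesenchymal marker VIM was at 797 CPM (a gene's counts scaled to a common library size) or more in every library, and CDH1, ESR1 and PGR were at or near 0, with at most 0.460 CPM for ESR1. The epithelial keratins KRT8 and KRT18 were present as well, at 315 to 505 and 110.1 to 188 CPM, and EPCAM was at 4.37 to 6.77 CPM. ERBB2, the HER2 gene, was present at 26.6 to 52.4 CPM, and PTPRC, CD3E and CDH5, markers of immune and endothelial cells, stayed below 0.5 CPM, and VWF reached 0.705 CPM. Of the fibroblast markers COL1A1 and PDGFRB were at 4.80 to 9.85 and 3.61 to 9.15 CPM, and COL1A2 was at or near 0. The C1 libraries stood apart from each other. The correlation of their log2 CPM over genes with a mean of at least 8 CPM was 0.932, against 0.988 to 0.998 for the other pairs. Over the 52 members, the difference between the 2 C1 libraries followed the GC content of the exons (Spearman 0.79, across 52 genes, which are not independent), with the GC-rich FOXM1 and PLK1 higher in replicate 1 and CKS2 and HMMR higher in replicate 2. At 0.05 μM, replicate 1 was higher than replicate 2 for 50 of 52 members. Values in C1 and at 0.05 μM are therefore given per library below for the 5 members called at 0.5 μM, and counts of calls also without the C1 libraries.

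The members ranged widely in level. Per kilobase of exon, the mean over all libraries ran from 2.37 CPM per kb for ESPL1, the separase that cuts cohesin, to 153.5 for CKS2, a small partner of CDK1, with CCNB1 at 83.5 and securin (PTTG1) at 78.6. For 47 members the mean CPM was highest in C1, the earliest untreated samples. For the other 5 (CCNB1, AURKA, HJURP, CENPA and PTTG1) it was highest at 0.5 μM. The lowest mean fell at 0.005 μM for 29 members, at 0.0005 μM and at 0.05 μM for 9 each, and in C2 for 5 (CCNB1, AURKA, HJURP, CKS2 and HMMR). No member had its lowest mean at 0.5 μM.

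**Figure D1:**
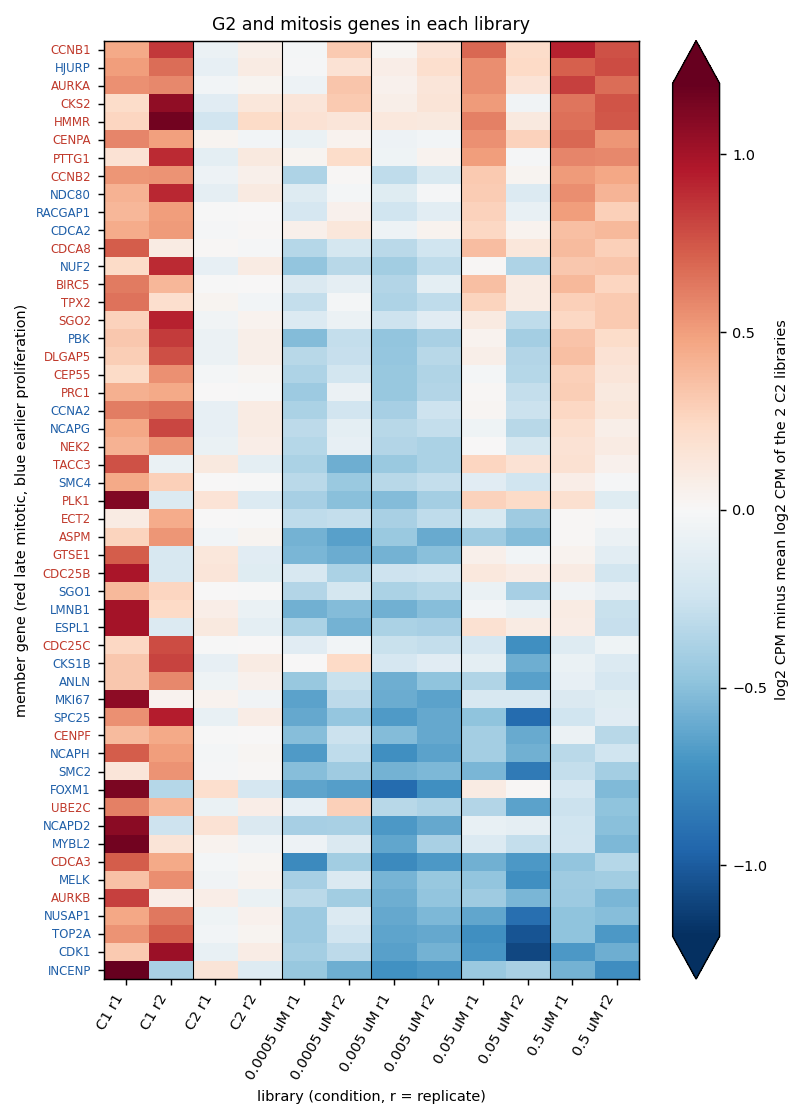
Log2 CPM of each of the 52 members (rows, ordered by the difference at 0.5 μM) in each of the 12 libraries (columns, r1 and r2 are the replicates), as the difference from the mean of the 2 C2 libraries, red for higher and blue for lower, with gene names in red for late mitotic and blue for earlier proliferation members. Most rows are red in the C1 columns and blue at the lower doses, where 47 of 52 members lay below C2 at 0.005 μM, and at 0.5 μM the rows part into 27 above and 25 below.

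At 0.5 μM against C2, the members did not move together. HJURP, CCNB1, AURKA and CENPA rose and TOP2A fell, and 47 members did not pass the test. Estimates were above C2 for 27 members and below it for 25, with a median log2 fold change of 0.013, against 0.036 over all genes tested and -0.11 over genes with a mean of at least 8 CPM. The 26 late mitotic members had a median of 0.21 with 18 estimates above C2, and the 26 earlier proliferation members a median of -0.14 with 9 above. Below C2 were 30.8% of the late and 65.4% of the earlier class, against 64.4% of genes with a mean of at least 8 CPM. Without 0.5 μM replicate 1 the medians were 0.099 and -0.22, without its replicate 2 they were 0.26 and -0.094, and with both untreated days as the control they were -0.023 and -0.41. These medians describe classes drawn up with earlier results of these data known, and the difference between them was not tested.

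Cyclin B1 had the largest estimate of the members that rose. CCNB1 (ENSG00000134057, GRCh37 chr5:68462962-68474072, plus strand) encodes the cyclin that activates CDK1 at mitotic entry. In C2 it stood at 146 and 161 CPM. At 0.0005 μM it was at 150.5 and 191 CPM, at 0.005 μM at 156 and 172, at 0.05 μM at 247 and 178, and at 0.5 μM at 290.3 and 261. Both libraries of the highest dose lay above all 6 libraries of the lower doses and above both C2 libraries. The mean was 275 ± 21.0 CPM at 0.5 μM and 154 ± 11.2 CPM in C2 (SD, n = 2 each). The log2 fold change was 0.84 (SE 0.20, 95% interval 0.42 to 1.27), a 1.79-fold rise, with a Benjamini-Hochberg adjusted p of 0.0279 in the quasi-likelihood fit of edgeR. The 2 C1 libraries, at 209.7 and 276 CPM, reached into the range of the highest dose.

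AURKA (ENSG00000087586, GRCh37 chr20:54944445-54967393, minus strand) encodes Aurora A, the kinase of the centrosome and spindle poles. It was at 89.5 and 93.5 CPM in C2 and at 161 and 145 CPM at 0.5 μM, with 87.5 and 115 at 0.0005 μM, 94.6 and 101 at 0.005 μM, and 134 and 103 at 0.05 μM. In C1 it was at 134 and 136 CPM. Both libraries of the highest dose lay above every other library. It rose by a log2 fold change of 0.75 (SE 0.17), 1.68-fold, with an edgeR adjusted p of 0.0247.

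Both genes of the centromeric chromatin in the set rose. HJURP (ENSG00000123485, GRCh37 chr2:234742062-234763212, minus strand) is the chaperone that loads the centromeric histone CENP-A. It was at 74.0 and 84.5 CPM in C2, at 78.1 and 89.3 at 0.0005 μM, at 83.5 and 91.1 at 0.005 μM, at 116 and 93.1 at 0.05 μM, and at 130.1 and 136 at 0.5 μM. In C1 it was at 112 and 126 CPM, and the highest dose lay above every other library. The log2 fold change was 0.75 (SE 0.15) and the edgeR adjusted p 0.0162, the lowest of the 52 members. HJURP had been placed among the earlier proliferation genes, so its rise goes against a plain split of the classes. An opposite-strand gene, MROH2A, shares exon bases with it, at a mean of 10.7 counts against 6529 for HJURP.

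CENPA (ENSG00000115163, GRCh37 chr2:26987157-27023935, plus strand), the centromeric histone itself, was at 20.2 and 19.2 CPM in C2 and at 31.7 and 28.4 at 0.5 μM. At the 2 lowest doses it stayed between 18.7 and 20.2 CPM, within or close to the range of C2, and at 0.05 μM it was at 28.7 and 23.8. In C1 it was at 29.5 and 27.6 CPM, so that C1 replicate 1 and 0.05 μM replicate 1 both lay above 0.5 μM replicate 2. The rise at 0.5 μM was 0.61 on the log2 scale (SE 0.14, edgeR adjusted p 0.0274). CENPA shares exon bases with SLC35F6 on the same strand, which had a mean of 1659 counts against 1548 for CENPA, so reads from the shared stretch could not be assigned.

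TOP2A (ENSG00000131747, GRCh37 chr17:38544777-38574148, minus strand), the topoisomerase that untangles sister DNA, was the member that fell. It was at 488 and 508 CPM in C2, at 369 and 425 at 0.0005 μM, at 322 and 325 at 0.005 μM, at 299 and 244 at 0.05 μM, and at 356 and 309 at 0.5 μM. Every treated library lay below both C2 libraries. At the highest dose the log2 fold change was -0.58 (SE 0.16) with an edgeR adjusted p of 0.0496, just inside the threshold. This call held in 11 of 23 alternatives. In C1 it was at 723 and 816 CPM. The lowest level was at 0.05 μM, where the log2 fold change was -0.88 (SE 0.16, edgeR adjusted p 0.0071).

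Beside the background, the calls were as follows. The 4 that rose are 7.69% of the members, against 4.36% of all genes tested and 1.25% of genes with a mean of at least 8 CPM. The 1 that fell is 1.92%, against 1.96% and 3.50%. At an unadjusted p under 0.05, 12 members (23.1%) were higher, against 13.0% of all genes and 4.83% of those at 8 CPM or more, and 8 (15.4%) were lower, against 9.91% and 16.8%. Leaving out either C2 or either 0.5 μM library leaves 1 library in a group, so a call lost there can come from the smaller group. Over 23 alternatives the 5 genes kept their direction, from 0.46 to 0.86 for HJURP, 0.51 to 0.95 for CCNB1 and 0.47 to 0.85 for AURKA. CENPA ran from 0.34 to 0.72 and TOP2A from -0.90 to -0.48, all as log2 fold changes. Without either 0.005 μM library HJURP alone remained called. Leaving out both C1 libraries, an alternative added after the data were seen, gave 22 called members, 12 higher and 10 lower, where 9.25% and 10.8% of all genes were called.

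**Figure D2:**
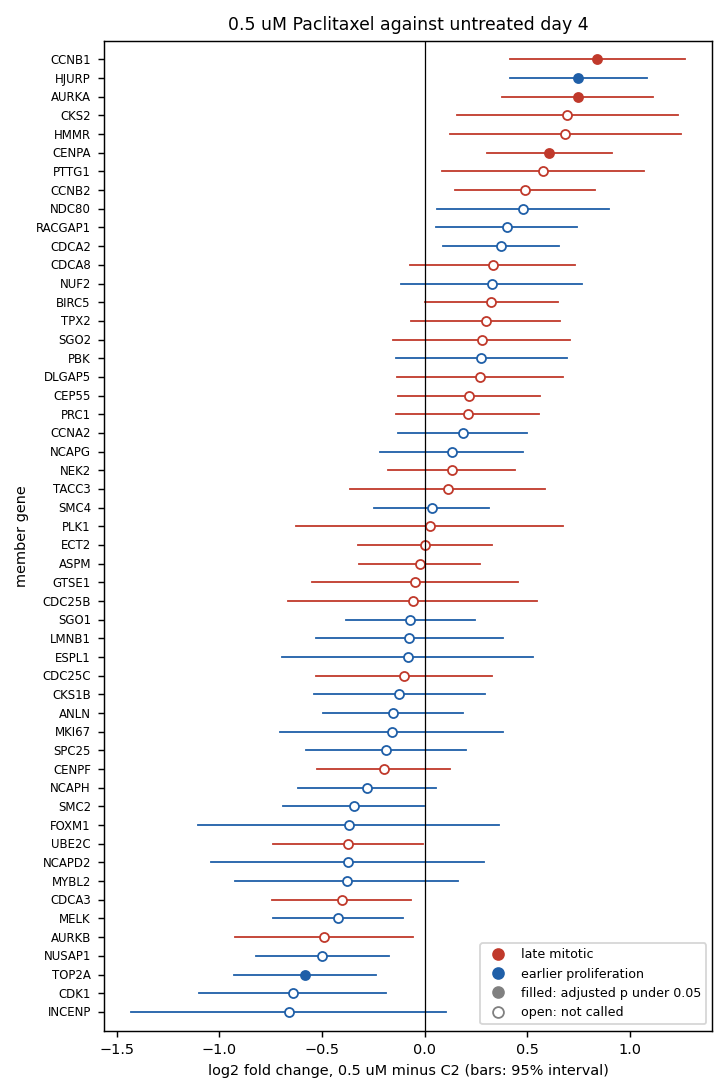
Log2 fold change of each of the 52 members (rows) at 0.5 μM against C2 (horizontal axis) with its 95% interval from the edgeR fit of 12 libraries, red for late mitotic and blue for earlier proliferation members, filled where the adjusted p was under 0.05. The 5 filled points are CCNB1, HJURP, AURKA and CENPA on the right and TOP2A on the left; with upper quartile scaling 34 estimates instead of 27 lie on the right and TOP2A is not called.

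Scaling moved the balance. With upper quartile normalization the median of all genes at 0.5 μM was 0.15 in place of 0.036, and 6 members were called, all higher (CCNB2 and CDCA2 beside the 4 above), with TOP2A not called, against 4 higher and 1 lower. In that fit 4.85% of all genes were called higher and 1.25% lower. Relative to the median of all genes, the late mitotic median was still above it (0.32) and the earlier median below it (-0.030). In the main fit the earlier median (-0.14) lay near that of genes with a mean of at least 8 CPM (-0.11). With correction for GC content and length, 13 members were called higher (25.0%, against 6.47% of all genes in that fit and 4.17% of those at 8 CPM or more) and 4 lower (7.69%, against 3.38% and 6.33%).

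Among the cyclins and the partners of CDK1, the B cyclins and CDK1 itself had opposite estimates. CCNB2, the second B-type cyclin, was at 76.1 and 83.0 CPM in C2 and at 113 and 109.8 at 0.5 μM, above both C2 libraries, as were 31.7% of all genes and 22.8% of those at 8 CPM or more. Its log2 fold change was 0.49 (SE 0.16, edgeR adjusted p 0.0876), short of the threshold. CDK1 was at 158 and 179 CPM in C2 and at 104 and 111 at 0.5 μM, below both C2 libraries, as were 27.3% of all genes and 43.5% of those at 8 CPM or more, with a log2 fold change of -0.64 (SE 0.21, edgeR adjusted p 0.0917). CDK1 lay below C2 in all 8 treated libraries, with 126 and 135 CPM at 0.0005 μM, 107 and 114 at 0.005 μM, and 103 and 78.8 at 0.05 μM.

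Cyclin A2 (CCNA2), which acts in S phase and G2 and is destroyed before cyclin B, was at 50.5 and 57.6 CPM in C2 and at 64.0 and 59.1 at 0.5 μM. That was a log2 fold change of 0.19 with a 95% interval from -0.13 to 0.50, and it did not pass the test. The ratio of CCNB1 to CCNA2 within a library, in which scaling cancels, was 1.53 and 1.49 on the log2 scale in C2, between 1.86 and 2.17 at the 3 lower doses, and 2.18 and 2.14 at 0.5 μM. All 8 treated libraries were above both C2 libraries by this ratio, and C1 was at 1.34 and 1.70. EXOSC9 shares exon bases with CCNA2 on the opposite strand, at a mean of 1973 counts against 3560, so CCNA2 and this ratio are uncertain. CKS2 had an estimate of 0.70 and CKS1B, its close relative, one of -0.12, and the phosphatases CDC25B and CDC25C, which activate CDK1, had -0.058 and -0.10, none of them called. CDC25C shares exon bases with FAM53C on the opposite strand, at 6630 counts against 1254, and its value is uncertain.

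**Figure D3:**
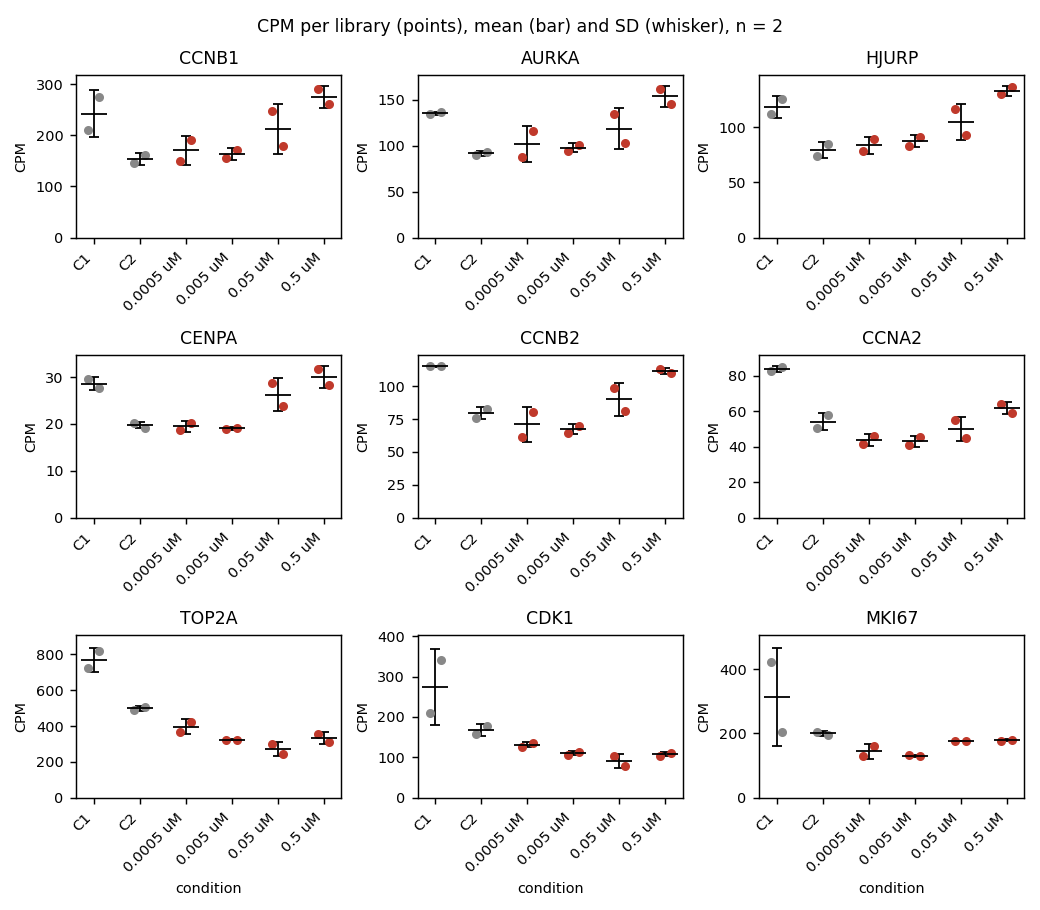
CPM (vertical axes, from 0) of 9 members in the 6 conditions (horizontal axes), with a point for each library, grey for untreated and red for Paclitaxel, a bar for the mean and a whisker for the SD (n = 2). CCNB1, AURKA, HJURP and CENPA are highest at 0.5 μM by their means, while TOP2A and CDK1 lie below both C2 libraries at every dose and CCNB2, CCNA2 and MKI67 have their highest mean in C1.

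Of the mitotic kinases and their activator, AURKA was the one called. PLK1, the Polo-like kinase needed for spindle assembly and cytokinesis, was at 67.4 and 53.5 CPM in C2 and at 68.6 and 54.4 at 0.5 μM. The groups overlapped almost fully, the log2 fold change was 0.025 with an interval from -0.62 to 0.67, and its sign turned when C2 replicate 2 or 0.5 μM replicate 1 was left out. PLK1 was at 45.5 and 42.3 CPM at 0.0005 μM, at 41.9 and 45.1 at 0.005 μM, and at 72.5 and 70.4 at 0.05 μM. TPX2, which activates Aurora A on the spindle, had an estimate of 0.30, NEK2, a centrosomal kinase, 0.13, PBK, a kinase active in mitosis, 0.28, and MELK, an embryonic leucine zipper kinase, -0.42, and none was called.

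The chromosomal passenger complex, which corrects faulty attachments of chromosomes to the spindle, had estimates in both directions. Survivin (BIRC5) and borealin (CDCA8) had estimates of 0.33 each, while its kinase AURKB and its scaffold INCENP had -0.49 and -0.66. None passed the adjusted threshold. The INCENP interval was wide (-1.43 to 0.11), and the C1 libraries differed most for this gene.

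At the kinetochore, the site where microtubules hold the chromosome, 5 of 8 centromere and kinetochore members had estimates above C2. NDC80 and NUF2, partners in the complex that grips the microtubule, had 0.48 and 0.33, and SPC25 of the same complex had -0.19. SGO1 and SGO2, the shugoshins that protect cohesion, had -0.069 and 0.28, and CENPF, a large kinetochore protein, -0.20. Beyond HJURP and CENPA no gene of the group was called.

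Among the 9 genes of condensin and chromosome structure, 6 had estimates below C2 and TOP2A was called. The condensin subunits NCAPD2, SMC2 and NCAPH had estimates of -0.38, -0.35 and -0.28, while SMC4 and NCAPG had 0.035 and 0.13. NCAPD2 shares exon bases with MRPL51 on the opposite strand, at a mean of 7718 counts against 7873, and its value is uncertain. MKI67, the proliferation marker Ki-67 that coats mitotic chromosomes, was at 206 and 195 CPM in C2, at 128 and 161 at 0.0005 μM, at 133 and 128 at 0.005 μM, at 175 and 175 at 0.05 μM and at 178 and 181 at 0.5 μM. Every treated library was below C2, but at 0.5 μM the log2 fold change was -0.16 with an interval from -0.70 to 0.39, it did not pass the test, and with correction for GC content and length it was 0.018. CDCA2, which recruits a phosphatase to chromosomes at mitotic exit, had an estimate of 0.37, and LMNB1, the lamin B1 of the nuclear envelope, one of -0.074.

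The spindle genes ranged from HMMR, with an estimate of 0.69 and an interval from 0.12 to 1.25, to NUSAP1, with -0.50 and an interval from -0.82 to -0.18. DLGAP5 and TACC3, which stabilise spindle fibres, had 0.27 and 0.11, and ASPM and GTSE1, of the spindle pole and the microtubule tips, -0.024 and -0.046. Of the targets and partners of the APC/C, securin (PTTG1) had an estimate of 0.58, from 118 and 138 CPM in C2 to 192 and 190.4 at 0.5 μM, while UBE2C, the ubiquitin-conjugating enzyme that works with the APC/C, had -0.37, CDCA3, a trigger of mitotic entry, -0.40, and ESPL1 -0.083. For cytokinesis, RACGAP1 had 0.40, CEP55 0.22, PRC1 0.21, ECT2 0.0016 and ANLN -0.15. None of the genes of this paragraph was called at 0.5 μM, and both transcription factors of the set were also without a call, with FOXM1 at 68.2 and 51.3 CPM in C2 and 51.4 and 41.0 at 0.5 μM (log2 fold change -0.37), and MYBL2 at 62.2 and 58.9 CPM in C2 and 51.5 and 41.5 at 0.5 μM (-0.38).

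At the lower doses, estimates lay below C2 for 32 members (61.5%) at 0.05 μM, 47 (90.4%) at 0.005 μM and 43 (82.7%) at 0.0005 μM, against 65.8%, 69.5% and 56.2% of genes at 8 CPM or more. The comparisons share the C2 libraries, so their values are given side by side and are not independent. At 0.05 μM, 7 members fell (13.5%, against 3.23% of all genes and 5.91% of genes with a mean of at least 8 CPM): CDK1, TOP2A, NUSAP1, SMC2, SPC25, CDCA3 and MELK, with log2 fold changes from -0.89 to -0.60. No member rose, where 5.09% of all genes and 1.33% of those at 8 CPM or more did. Here CCNB1 had an estimate of 0.47, CENPA 0.41, HJURP 0.40 and AURKA 0.37, each at an unadjusted p under 0.05 and none called by edgeR. These 4 are 7.69% of the members. By that rule 3172 of all 25249 genes were higher, and 482 of the 11193 at 8 CPM or more. The late mitotic median was 0.054, with 14 of 26 estimates above C2, and the earlier median was -0.19, with 6 above. The late median turned to -0.042 without C2 replicate 2, to -0.052 without 0.05 μM replicate 1, where the earlier median was -0.36, and to -0.16 with both untreated days as the control. The count of 7 was 0 without replicate 2 of that dose, 0 and 1 without C2 replicate 1 and replicate 2, and 18 without both C1 libraries, of which 3 were higher and 15 lower, with 9.16% of all genes called lower in that fit, and 5.83% higher and 17.2% lower among those at 8 CPM or more. CDCA3 has a second, near-identical identifier with counts within 1%. NUSAP1 shares exon bases on the same strand with OIP5-AS1, which had a mean of 6173 counts against 7307 for NUSAP1, so its value is uncertain in the way of CENPA's.

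At 0.005 μM, 47 of 52 members lay below C2 with a median log2 fold change of -0.38, against 0.036 for all genes and -0.12 for genes with a mean of at least 8 CPM. CDCA3 fell by 0.73 and NCAPH by 0.69 on the log2 scale, and these 2 were called (3.85% of members, against 0.776% of all genes and 1.54% of those at 8 CPM or more), while 24 members (46.2%) had an unadjusted p under 0.05, all lower, against 7.11% of all genes and 12.7% of those at 8 CPM or more. FOXM1 stood at 31.3 and 35.5 CPM at this dose, below both C2 libraries, with a log2 fold change of -0.84 that was not called. At 0.0005 μM, 43 members lay below C2, with a median of -0.29, and ASPM was called, with a fall of 0.61 on the log2 scale (1.92% of members, against 0.479% of all genes and 0.724% of those at 8 CPM or more). Without both C1 libraries 22 members were called at 0.005 μM (42.3%, against 6.21% of all genes in that fit and 12.5% of those at 8 CPM or more) and 15 at 0.0005 μM (28.8%, against 4.56% and 8.19%), all lower. With either C2 library left out it was 0 at both doses.

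**Figure D4:**
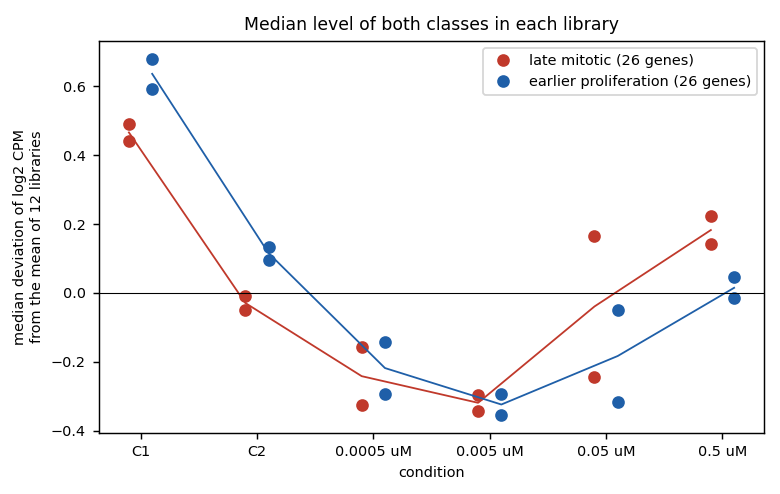
Median over the 26 late mitotic (red) and 26 earlier proliferation (blue) members of how far log2 CPM lay from its own mean over the 12 libraries (vertical axis) in each library of the 6 conditions (horizontal axis), with lines through the means of the 2 libraries. The earlier class lies above the late class in both untreated conditions (0.13 and 0.096 against -0.0087 and -0.050 in C2) and below it at 0.5 μM (0.045 and -0.016 against 0.22 and 0.14).

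A comparison of 0.5 μM with the mean of the 3 lower doses takes its fold changes from treated libraries alone, while its errors come from the fit of all 12. Of 52 members, 47 had estimates above the lower doses, with a median of 0.32 against 0.031 over all genes tested, and medians of 0.41 for the late mitotic and 0.27 for the earlier class. No member was called by edgeR with all 12 libraries (0.0713% of all genes were, in either direction), while 30 were higher at an unadjusted p under 0.05 (57.7%, against 3.78% of all genes and 2.40% of genes with a mean of at least 8 CPM). For 27 members the 2 libraries at 0.5 μM lay above all 6 of the lower doses, against 5.66% of all genes. NUF2 had the largest estimate, 0.64 (SE 0.16), followed by PBK with 0.61, CCNB1 with 0.60 and CCNB2 with 0.57, each with its groups apart. TOP2A, CDK1 and MELK had 0.026, -0.024 and 0.040, and the intervals of all 3 held 0. DESeq2 called 3 members (ASPM, CCNB2 and HJURP), all higher, where it called 0.0944% of all genes higher. With only the 8 treated libraries in the fit, edgeR called 15 (28.8%), all higher, against 0.391% of all genes and 0.643% of those at 8 CPM or more. Without both C1 libraries it called 13 (25.0%), all higher, against 0.231% and 0.420%.

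Untreated cells also differed between the days. On day 4 all 52 members were lower than on day 2, with log2 fold changes from -0.75 (HMMR) to -0.28 (ECT2) and a median of -0.55, against -0.023 over all genes tested. No member was called with all 12 libraries by edgeR (0.325% of all genes were), but 43 of 52 (82.7%) had an unadjusted p under 0.05, against 4.71% of all genes lower and 8.01% of genes with a mean of at least 8 CPM, and DESeq2 called 10 (19.2%, against 0.327% of all genes, lower). For 43 members both C2 libraries lay below both C1 libraries, against 15.3% of all genes. CDK1 was at 209 and 342 CPM on day 2. Without C1 replicate 1 the count of called members was 29, all lower (55.8%, against 5.69% of all genes in that fit and 12.1% of those at 8 CPM or more). In that fit 8 members had estimates above 0 and were not called, led by INCENP (0.40), FOXM1 (0.36) and NCAPD2 (0.26). Without C1 replicate 2 the count was 20, all lower (38.5%, against 5.01% and 10.9%), and all 52 estimates were below 0. When both untreated days were used as the control for 0.5 μM, 2 members were called higher (AURKA and HJURP; 3.85%, against 9.49% of all genes in that fit and 2.54% of those at 8 CPM or more) and 11 lower (21.2%, against 4.87% and 9.20%), and 16 estimates in place of 27 lay above the control.

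Across the 12 libraries some members followed CCNB1 closely and others did not. Pearson's r of log2 CPM with CCNB1 was 0.97 for AURKA and for HJURP, 0.90 for CENPA and 0.89 for CCNB2, and it was 0.16 for CDK1, 0.13 for TOP2A, 0.28 for MKI67 and -0.099 for INCENP. These values describe 12 libraries that share conditions and scaling, among them the 2 C1 libraries that stood apart. There, log2 CPM of replicate 1 minus replicate 2 was -0.39 for CCNB1, 1.61 for INCENP and 1.03 for MKI67. For CDK1 and TOP2A it was -0.71 and -0.17. In bulk samples, fewer cells in a phase of the cycle and less RNA per cell cannot be told apart, and neither cell numbers nor cycle phases were measured in these libraries.

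Other genes of the cycle were set beside the members from lists compiled by hand. Their counts stand beside the same shares as above, 4.36% of all genes called higher at 0.5 μM and 1.96% lower, or 1.25% and 3.50% of those at 8 CPM or more. The mitotic kinesins, motors of the spindle, had 9 of 14 estimates above C2 at 0.5 μM, and KIF20A, the kinesin of cytokinesis, was the only one called (7.14% of the list), with a log2 fold change of 0.84 (edgeR adjusted p 0.0208). Of 21 genes that control mitotic entry, 1 was called in each direction (4.76% each): GADD45A, a stress-induced inhibitor of CDK1, rose by 0.84, and WEE1, the kinase that holds CDK1 inactive, fell by 0.94 on the log2 scale. Of 39 checkpoint and APC/C genes, DSN1, a subunit of the kinetochore, was called (2.56%, within the range of the 2 shares for lower calls), with a fall of 0.57, and the median of this list was -0.0013. Of 45 S phase genes, 43 were below C2 (95.6%, against 64.4% of genes at 8 CPM or more) with a median of -0.49, and 12 were called (26.7%), all lower, among them POLA2 (-1.09), MCM5 (-1.08), CHAF1A (-1.04) and CHAF1B (-0.96). Of 18 genes of the E2F and DREAM group 3 were called lower (16.7%), E2F1, RBL1 and RBBP4, with log2 fold changes of -0.89, -0.85 and -0.52.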

How the data were processed

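RNA of 12 libraries was measured by paired-end sequencing on an Illumina instrument. The authors trimmed reads, aligned them to GRCh37 (hg19), kept those aligned uniquely, counted them over exons and deposited whole-number counts per gene, neither normalized nor pooled. The submitters' processing notes list FastQC 0.11.9, Trimmomatic 0.39 and STAR 2.7.5. Whether counting used strand is not given in the sources used here, so for 18 members that share exon bases with an opposite-strand gene the reads cannot be told apart. The table of the whole series and the 12 single files were identical. Symbols were taken from a table of gene names, and exon lengths, GC content and overlaps from GENCODE annotation on GRCh37. The groups follow the sample titles, and the treatment protocol of the labels places the drug on day 2, where the imaging experiments of the study gave it later.

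In R 4.3.3, counts were scaled by TMM, filtered with filterByExpr, and tested two-sided with the robust quasi-likelihood test of edgeR 4.0.16 in 1 fit of 12 libraries and 6 conditions (6 residual degrees of freedom), which borrows the spread of all conditions. The biological coefficient of variation was 15.6%. P-values were adjusted by Benjamini-Hochberg over 25249 genes, and an adjusted p under 0.05 was a call. CPM were computed on TMM-scaled library sizes, with a prior count of 2 for their log2. An exact test of 2 against 2 libraries cannot go below 0.333. DESeq2 1.42.0 served as an alternative and in the check on simulated data, and limma 3.58.1 was loaded beside edgeR without a fit of its own. Tested on simulated data for 0.5 μM against C2 (25249 genes), the test recovered 73% of log2 changes of 1 and 9% of changes of 0.6, and 5.75% of its calls were false. The simulated counts used the spread estimated by edgeR and had no GC difference between C1 libraries. These rates therefore need not hold for the real libraries. Members, classes and lists were chosen with earlier results of these data known. Values per sample are given for members called at 0.5 μM against C2 and for CCNB1, CCNB2, CDK1, CCNA2, MKI67, TOP2A, PLK1, AURKA, FOXM1 and MYBL2. PTTG1 was added after its values were seen. Genes of the other lists are named only where called, at most 4 a list and direction.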

Additional observations from a re-analysis of the deposited data

How the results depend on the processing

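Against the counts of called members in the report (5, 7, 2 and 1 at 0.5, 0.05, 0.005 and 0.0005 μM against C2, and 0 for C2 against C1 and for 0.5 μM against the lower doses), other settings gave these values. Without a filter the counts were 10 at 0.5 μM, 11 at 0.005 μM, 2 at 0.0005 μM, 11 for C2 against C1 and 3 against the lower doses, where 0.928% to 2.16% of all genes were called lower and 1.91% to 4.02% higher across the doses. DESeq2 gave 11 at 0.05 μM, 10 at 0.005 μM, 2 at 0.0005 μM, 10 for C2 against C1 and 3 against the lower doses, where 1.47% to 4.78% of all genes were called lower and 2.95% to 4.90% higher across the doses. On the simulated data, drawn with the spread estimated by edgeR, 19.6% of its calls were false. Correction for GC content and length, known for 22268 genes (88.2%) and all members, gave 17, 12, 9 and 5 at the doses from high to low, 4 for C2 against C1 and 9 against the lower doses, where 1.32% to 3.52% of all genes were called lower and 3.28% to 7.43% higher across the doses. Fitting only the libraries compared gave 16, 15, 28 and 14, where 5.24% to 5.75% of all genes were called lower and 5.43% to 7.30% higher across the doses, and 15 against the lower doses. With both untreated days as the control the counts were 13, 19, 33 and 21, where 2.49% to 6.95% of all genes were called lower and 5.77% to 10.2% higher. Upper quartile scaling gave 4 at 0.05 μM and 0 at 0.0005 μM, where 1.82% and 0.416% of all genes were called lower and 5.68% and 2.20% higher. Without both C1 libraries, chosen after the data were seen, the counts were 22, 18, 22 and 15, where 4.56% to 10.8% of all genes were called lower and 5.70% or more higher, and 13 against the lower doses. Leaving out 1 library at a time gave 0 to 22 at 0.5 μM, 0 to 18 at 0.05 μM, 0 to 24 at 0.005 μM, 0 to 15 at 0.0005 μM, 0 to 29 for C2 against C1 and 0 to 13 against the lower doses, with the high counts where a C1 library was left out, in which 4.25% to 10.2% of all genes were called lower and 4.94% to 9.47% higher across the doses. No source says that a replicate number marks a shared culture or day. Deviations of same-numbered libraries correlated from -0.60 to 0.70 between conditions, with 0.63 for C2 with 0.5 μM and 0.70 for C1 with C2, so the numbers were not taken to pair the libraries. With a replicate block the count at 0.5 μM was 4, losing TOP2A, and no other count changed.

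At 0.5 μM, HJURP stayed called in 19 of 23 alternatives, AURKA in 17, CCNB1 in 16, CENPA in 14 and TOP2A in 11, always in the direction reported. CCNA2 turned to -0.13 with both untreated days as the control, MKI67 to 0.018 with the GC and length correction, and PLK1 to -0.28 with both untreated days, -0.14 without C2 replicate 2, -0.021 without 0.05 μM replicate 2 and -0.18 without 0.5 μM replicate 1, within a range of -0.18 to 0.198 over the libraries left out. The cause of these changes was not tested.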
